A study of Mus musculus with 4 samples.

Results

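The nuclear genes for the subunits of the mitochondrial respiratory chain and the ATP synthase were followed in double positive thymocytes, immature T cells that carry both CD4 and CD8. They were chosen by symbol (Nduf with a subunit letter and number, Uqcr, Sdha to Sdhd, Cox4 to Cox8 and Atp5). The rule took every gene that matched, but the group itself was chosen with earlier results of these data known. The rule took 164 of the 45037 probe sets on the array, which name 81 of the 18193 genes with a probe set of a single symbol. Of these 81 genes, 35 belong to complex I, 4 to complex II, 8 to complex III, 17 to complex IV and 17 to complex V by symbol. A filter on dim probe sets kept 77 of them, and Ndufb4, Cox7a1, Cox7b2 and Cox8b did not pass it.

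One Affymetrix mouse array was hybridised per mouse, with RNA from 2 Ikf/f CD4-Cre+ mice (Cre-positive) and 2 Ikf/f CD4-Cre- mice (Cre-negative). All 4 mice carried Ikf/f, the label for the conditional allele of Ikaros, a zinc finger transcription factor encoded by Ikzf1. The CD4-Cre transgene, in which Cd4 regulatory sequence drives the Cre recombinase, was what differed between the groups. No mice with Cre and without the conditional allele were among the samples, so loss of Ikaros and the presence of Cre cannot be told apart. Age, sex, cell isolation and hybridisation batch were not given in the sources used here. Values are log2 signals made by the authors with RMA, and a difference is the Cre-positive mean minus the Cre-negative mean on that scale.

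The respiratory chain passes electrons from NADH, through complex I, and from succinate, through complex II, to ubiquinone, then through complex III and cytochrome c to complex IV, which reduces oxygen. Complexes I, III and IV pump protons across the inner mitochondrial membrane, and complex V, the ATP synthase, makes ATP as the protons return. Most subunits are encoded in the nucleus and imported, and the rest are encoded by mitochondrial DNA, so both genomes supply each complex other than complex II. Double positive thymocytes are mostly small resting cells, which arise from a dividing precursor.

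Ikzf1 read 10.80 and 10.62 in the Cre-positive samples, against 12.40 and 12.08 in the Cre-negative samples, a fall by 1.53 (SE 0.16, limma adjusted p = 0.024; 0.0717 to 0.164 when each array was left out in turn, where the difference was -1.69 to -1.37). A signal remained in Cre-positive cells, and where its probes lie relative to the deleted part is not given here. Cre-negative sample 2 stood apart in sex-linked transcripts: Xist read 5.09 and 5.37 in the Cre-positive samples, against 4.73 and 12.75 in the Cre-negative samples 1 and 2. Kdm5d, on the Y chromosome, had the opposite pattern, with 8.37 and 8.23 in Cre-positive and 8.29 and 2.86 in Cre-negative samples. The correlation over all probe sets (Pearson's r) was 0.994 within the Cre-positive pair, 0.992 within the Cre-negative pair and 0.984 to 0.987 between arrays of different groups. In bulk RNA, a change in the number of cells of a type and a change in RNA per cell cannot be told apart.

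Of the 12 markers listed for double positive cells, not all of them specific to that stage, 11 had a kept probe set. Their mean level was 11.61 and 11.62 in the Cre-positive samples and 11.60 and 11.71 in the Cre-negative samples. Both Cre-positive samples read below both Cre-negative samples for 6 of the 11 (against 18.7% of all kept genes) and above both for 2 (against 34.2%). Their median difference was -0.11, and -0.24 after centring each array on the median of kept genes. At an adjusted p under 0.05 in the limma test 0 passed. At an unadjusted p under 0.05, 2 were higher and 3 lower (against 14.3% and 6.29% of all kept genes). Ptcra, the pre-T cell receptor chain of earlier cells, differed by 1.16, Cd1d1 by -0.66 and Cd8a by -0.30. Of the markers of other cells, 5 were called, all higher in Cre-positive samples, where 1.37% of all kept genes were called in either direction. Of 10 kept macrophage and granulocyte markers, 9 had a difference above 0 (against 61.0% of all kept genes) and 2 were called higher, Lyz2 and Ctss. The mean level of the 10 was 6.01 and 6.30 in the Cre-positive samples and 5.14 and 5.05 in the Cre-negative samples. The groups did not overlap for 7 that were higher. They overlapped for 3, Csf1r (0.19), Fcer1g (0.062) and Adgre1 (-0.028), named after their values were seen. The granulocyte genes S100a8 and S100a9, singled out after their values were seen, were high in Cre-positive sample 2 alone. S100a8 read 4.52 and 8.38 in the Cre-positive samples and 4.50 and 4.02 in the Cre-negative samples, and S100a9 read 3.74 and 7.14 in Cre-positive and 3.93 and 3.74 in Cre-negative samples. Of 9 kept dendritic cell markers, 7 were above 0 and 2 were called, H2-Ab1 and Irf8, with mean levels of 6.40 and 6.46 in Cre-positive and 5.74 and 5.46 in Cre-negative samples. The groups did not overlap for 6 that were higher and 1 that was lower, Zbtb46 (-0.14). Flt3 (-0.16) and Siglech (0.012) overlapped. These 3 genes were named after their values were seen. Of 6 stromal and epithelial markers, 3 were above 0, 3 were below it (Epcam, Pecam1 and Krt5, named after their values were seen, at -0.13, -0.038 and -0.0044) and Pdgfrb was called, with mean levels of 6.86 and 6.39 in Cre-positive and 5.64 and 5.67 in Cre-negative samples. Among uncalled markers Tyrobp differed by 0.82, H2-Eb1 by 1.68 and Krt8 by 0.43 (0.14 to 0.73 when each array was left out in turn). Col1a2, of stromal cells, differed by 4.52 and read 11.55 and 8.01 in the Cre-positive samples, against 5.18 and 5.33 in the Cre-negative samples. Other listed stromal and epithelial markers were too dim to pass the filter. Of these, Col1a1, Col3a1 and Pdgfra differed by -0.026, -0.026 and -0.052, and Foxn1 by 0.20. The 3 kept B cell markers had a median difference of 0.18, with mean levels of 5.98 to 6.34 over the 4 arrays, and the 2 kept erythroid markers had mean levels of 5.23 and 5.50 in Cre-positive and 5.51 and 5.20 in Cre-negative samples; Ms4a1 differed by 0.71, Pax5 by 0.18, Cd79b by -0.084, Epor by 0.047 and Alas2 by -0.029. The adjusted p of Ctss was 0.0318 to 0.086 and that of Lyz2 0.0306 to 0.175 when each array was left out in turn, and H2-Ab1, Irf8 and Pdgfrb were then called in 0 of the 4 fits. After centring on the median of kept genes these last 3 had adjusted p-values of 0.0537, 0.0676 and 0.0548. The part of these cells in the respiratory chain values was not tested.

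The respiratory chain genes read slightly higher in Cre-positive thymocytes as a group, and 0 of the 77 passed the test singly. The limma fit over 11639 genes with Benjamini-Hochberg adjustment called 160 genes, or 1.37%, at an adjusted p under 0.05. At an unadjusted p under 0.05, 15 of the 77 (19.5%) were higher and 0 were lower, against 14.3% of all kept genes that were higher and 6.29% that were lower by that rule. The difference was above 0 for 71 of the 77 genes (92.2%), against 61.0% of all kept genes. Both Cre-positive samples read above both Cre-negative samples for 56 genes (72.7%, against 34.2% of all kept genes) and below both for 3 genes (3.90%, against 18.7%), and the groups overlapped for the other 18. The median difference was 0.19, a ratio of 1.14, against 0.06 over all kept genes, and single genes lay between -0.24 for Cox7c and 0.62 for Ndufc1.

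**Figure D1:**
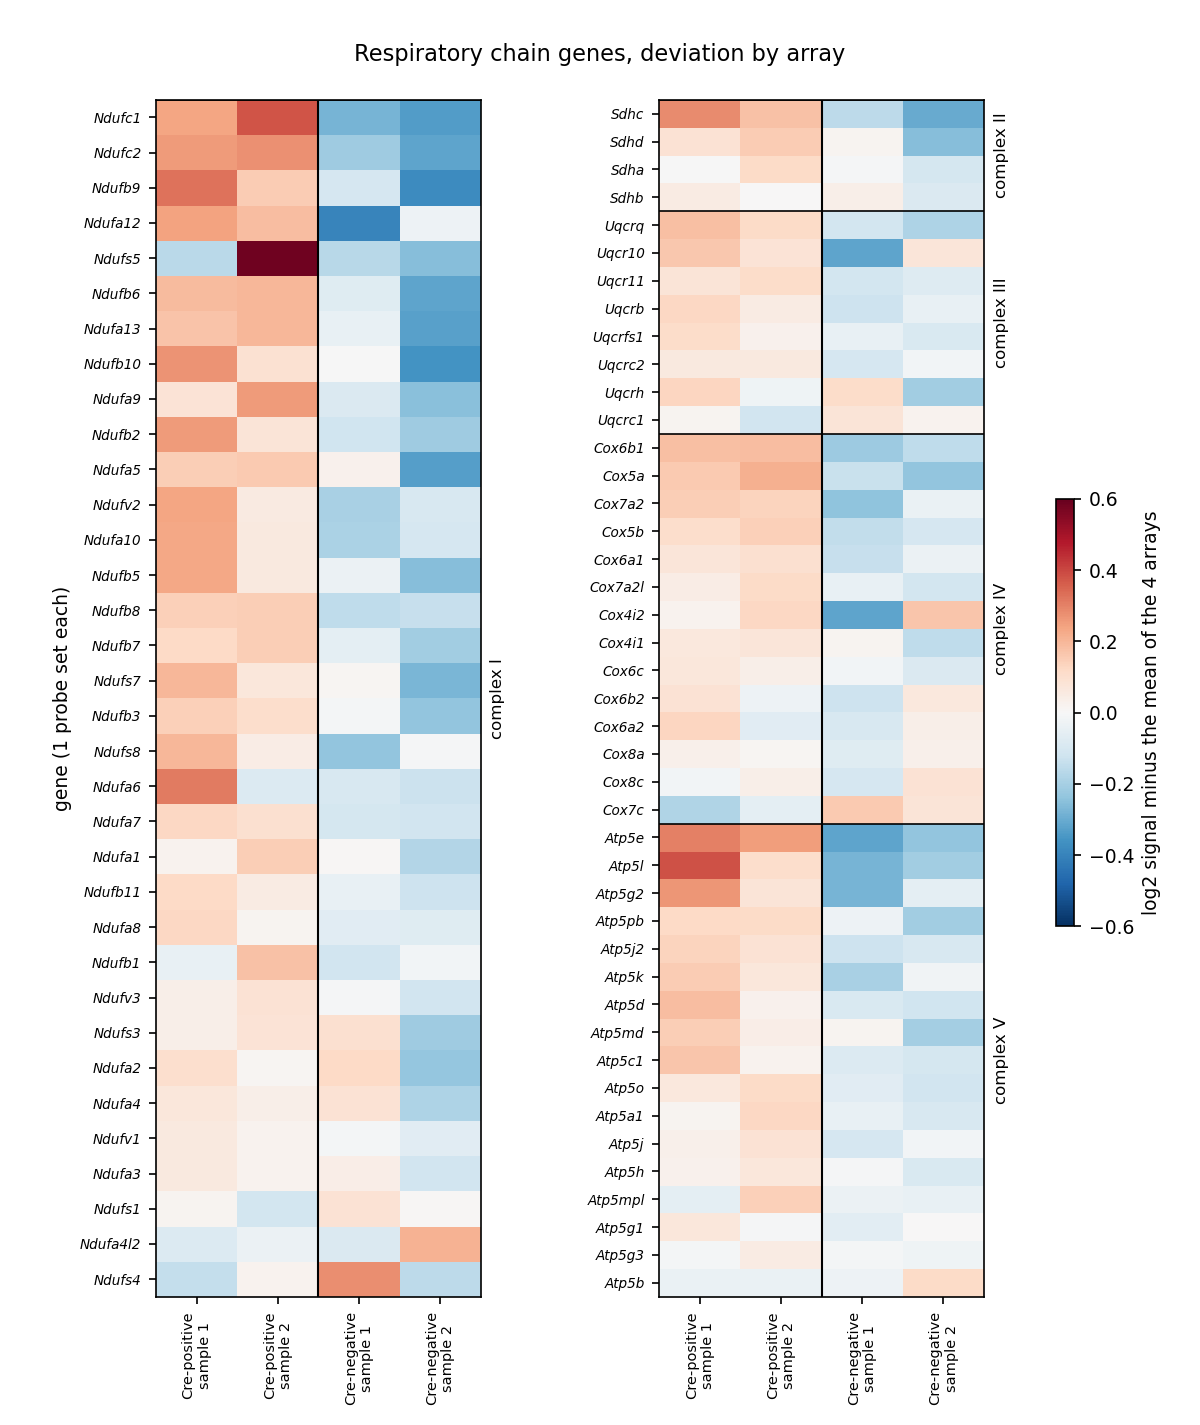
Deviation of each kept respiratory chain gene from its mean over the 4 arrays, in log2 signal (colour), with a row for each gene, grouped by complex and sorted by difference, and a column for each array, Cre-positive samples on the left. Most rows are red in both Cre-positive columns and blue in both Cre-negative columns, and Cox7c is the reverse.

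The distance of this median from 0 depended on the scaling of the arrays. Centring moved the differences of all genes by the same amount, so the gap between the members' median and that of all kept genes stayed the same. The median of the kept genes was 7.93 and 7.91 in the Cre-positive samples, against 7.80 and 7.78 in the Cre-negative samples. When each array was centred on that median, the median difference over all kept genes moved to -0.07 and that of the respiratory chain genes to 0.057. Then 51 of the 77 genes were above 0 (66.2%, against 38.8% of all kept genes), 27 did not overlap and were higher (35.1%, against 18.5%), and 9 did not overlap and were lower (11.7%, against 36.3%). When each array was centred on its median over all probe sets, which was 5.23 and 5.25 in the Cre-positive samples and 5.19 and 5.22 in the Cre-negative samples, the members' median was 0.15 and that of all kept genes 0.03.

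**Figure D2:**
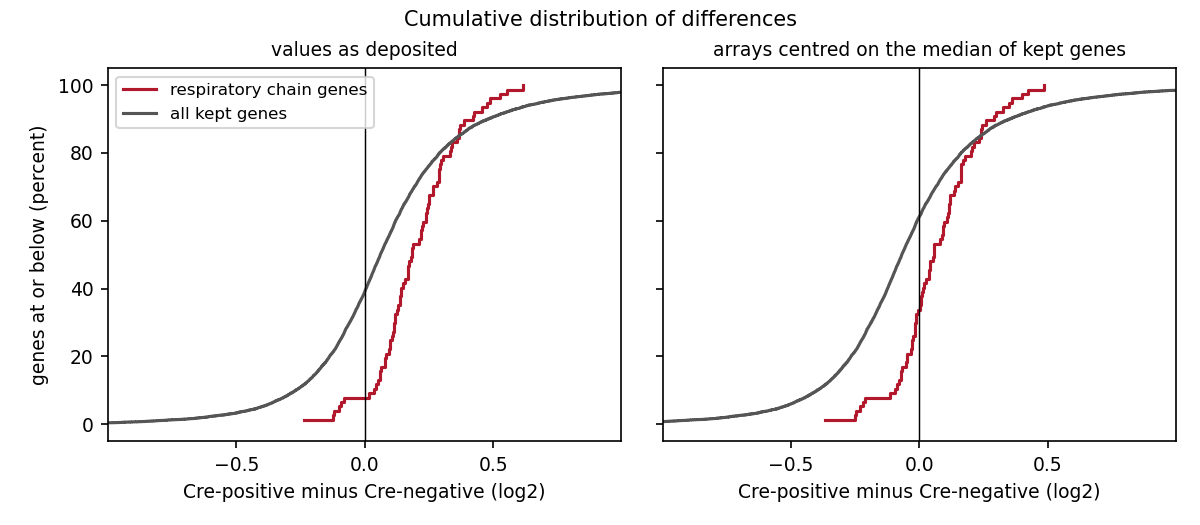
Cumulative percent of genes (vertical axis) at or below each difference, Cre-positive minus Cre-negative (horizontal axis, log2 signal, drawn from -1 to 1), for the 77 respiratory chain genes and all 11639 kept genes, as deposited (left) and after centring on the median of kept genes (right). The curve of the respiratory chain genes is steeper, lies to the right of the other at the median (0.19 against 0.06 on the left, 0.057 against -0.07 on the right) and crosses it near the top, since all kept genes also include larger differences.

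The direction was the same in each pairing of a Cre-positive with a Cre-negative sample. Over the 77 genes, the mean level was 10.72 and 10.70 in the Cre-positive samples, against 10.53 and 10.49 in the Cre-negative samples. Cre-positive sample 1 exceeded Cre-negative samples 1 and 2 by medians of 0.17 and 0.21, and Cre-positive sample 2 exceeded them by 0.14 and 0.19. Between 66 and 68 of the 77 genes were above 0 in each pairing, where all kept genes had medians of 0.05 to 0.07. Within groups, the median over the 77 genes was -0.025 for Cre-positive sample 2 minus sample 1 and -0.054 for Cre-negative sample 2 minus sample 1. Without Cre-negative sample 2, the array that stood apart in Xist, the median difference was 0.16 and 67 genes were above 0.

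Promoters of Ndufc1 and Atp5e, the genes with the smallest p-value in complexes I and V, of Uqcr11 of complex III, and of Cox7c, the gene with the lowest difference, are shown because most members lay on 1 side of 0 with Cox7c on the other. Each runs 5′ to 3′ from 250 bases before to 50 bases after the annotated start of the gene (RefSeq, GRCm38.p6), and capitals mark matches on either strand to short core motifs of NRF1 (GCGCATG), ETS factors such as GABP (CCGGAAG), YY1 (AAGATGG), estrogen related receptors (AAGGTCA) and Ikaros (TGGGAA). None of these 5 motifs contains another, and they were chosen with the results known.
Ndufc1, chr3:51408906-51409205, minus strand: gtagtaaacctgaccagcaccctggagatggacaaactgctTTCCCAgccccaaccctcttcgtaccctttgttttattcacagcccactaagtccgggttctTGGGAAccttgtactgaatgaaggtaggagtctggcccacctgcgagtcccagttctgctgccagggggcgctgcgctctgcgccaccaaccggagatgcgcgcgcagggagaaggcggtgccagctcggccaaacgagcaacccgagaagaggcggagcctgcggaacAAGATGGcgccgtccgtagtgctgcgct
Uqcr11, chr10:80406772-80407071, minus strand: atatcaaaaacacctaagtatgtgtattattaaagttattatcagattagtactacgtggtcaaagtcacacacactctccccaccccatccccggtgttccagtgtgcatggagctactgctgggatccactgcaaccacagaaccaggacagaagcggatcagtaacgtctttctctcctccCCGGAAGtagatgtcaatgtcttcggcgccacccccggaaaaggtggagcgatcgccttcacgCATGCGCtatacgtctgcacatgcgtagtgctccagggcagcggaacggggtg
Atp5e, chr2:174464052-174464351, minus strand: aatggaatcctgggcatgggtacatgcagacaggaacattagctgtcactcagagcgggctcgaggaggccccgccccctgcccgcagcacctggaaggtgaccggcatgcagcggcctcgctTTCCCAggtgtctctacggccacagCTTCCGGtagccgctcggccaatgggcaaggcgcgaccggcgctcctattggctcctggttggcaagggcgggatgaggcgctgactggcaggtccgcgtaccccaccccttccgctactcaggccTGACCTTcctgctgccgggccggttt
Cox7c, chr13:86046746-86047045, minus strand: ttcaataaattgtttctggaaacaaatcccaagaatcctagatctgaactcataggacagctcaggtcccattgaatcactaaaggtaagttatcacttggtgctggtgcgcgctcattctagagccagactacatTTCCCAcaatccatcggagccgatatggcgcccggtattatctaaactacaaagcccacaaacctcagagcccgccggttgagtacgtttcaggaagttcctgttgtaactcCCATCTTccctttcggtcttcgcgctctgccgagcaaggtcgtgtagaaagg
The Ndufc1 window holds an AAGATGG match starting 23 bases downstream of the start site and TGGGAA matches starting 209 and 147 bases upstream of it. The Uqcr11 window holds CCGGAAG from 66 bases upstream and GCGCATG, on the other strand, from 3 bases upstream. The Atp5e window holds TGGGAA from 127 bases upstream, CCGGAAG from 102 bases upstream and AAGGTCA from 25 bases downstream, all on the other strand. The Cox7c window holds TGGGAA from 114 bases upstream and AAGATGG from 2 bases upstream, both on the other strand.

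The share of windows with a match was counted in the 71 windows found for 66 of the 81 respiratory chain genes and in all 32851 windows, and no difference between these shares was tested. GCGCATG was present in 12 windows (16.9%, against 3.91% of all), CCGGAAG in 17 (23.9%, against 8.86%), AAGATGG in 10 (14.1%, against 6.34%) and AAGGTCA in 8 (11.3%, against 4.72%). TGGGAA was present in 14 windows (19.7%, against 25.6% of all). The windows of 6 genes held both GCGCATG and CCGGAAG, and those of 26 genes held none of the 5 motifs. The median difference was 0.22 for the 12 kept genes with GCGCATG and 0.21 for the 50 without it, 0.19 for 17 with CCGGAAG and 0.22 for 45 without, 0.23 for 10 with AAGATGG and 0.21 for 52 without. It was 0.33 for 7 with AAGGTCA and 0.19 for 55 without, and 0.24 for 13 with TGGGAA and 0.19 for 49 without. A match of this kind describes the letters and is not a binding site.

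Complex I, the NADH dehydrogenase, had the highest median difference of the 5 complexes with values as deposited, 0.26 over its 34 kept genes, of which 31 were above 0, 26 did not overlap and were higher, and 0 were called, with 9 higher and 0 lower at an unadjusted p under 0.05. Its mean level was 10.61 and 10.60 in the Cre-positive samples, against 10.42 and 10.31 in the Cre-negative samples. After centring on kept genes its median was 0.13, with 25 of 34 above 0 (against 38.8% of all kept genes). Beside the counts of each complex as deposited, 61.0% of all kept genes were above 0, and 34.2% did not overlap and were higher. At an unadjusted p under 0.05 in the limma fit, 14.3% of all kept genes were higher and 6.29% were lower. Cre-negative sample 2 read below Cre-negative sample 1 for 27 of the 34 genes, with a median of -0.11, so that without it the median for complex I was 0.18.

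**Figure D3:**
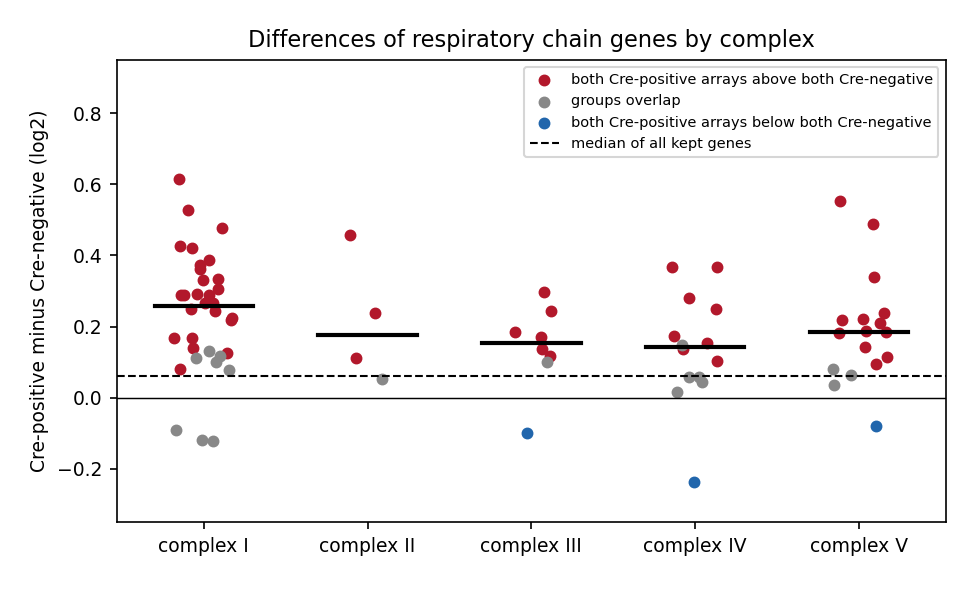
Difference of each kept respiratory chain gene, Cre-positive minus Cre-negative (vertical axis, log2 signal, values as deposited), by complex (horizontal axis). Each point is a gene, coloured by whether both Cre-positive arrays lie above both Cre-negative arrays, below both or overlap them; bars are the medians of the complexes, from 0.14 for complex IV to 0.26 for complex I, and the dashed line is the median of all kept genes, 0.06.

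Ndufc1 and Ndufc2, a pair of accessory subunits in the membrane arm, had the 2 highest differences of complex I. Ndufc1 read 11.05 and 11.19 in the Cre-positive samples, against 10.53 and 10.48 in the Cre-negative samples, a difference of 0.62 (SE 0.12, adjusted p = 0.0754). Ndufc2 read 12.33 and 12.35 in Cre-positive and 11.86 and 11.76 in Cre-negative samples, a difference of 0.53 (SE 0.11, adjusted p = 0.0913). The groups did not overlap for either gene, and their differences after centring on kept genes were 0.49 and 0.40. Each had other probe sets past the filter in the same direction, at 0.32 for Ndufc1 and at 0.31 and 0.38 for Ndufc2.

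Membrane arm accessory subunits Ndufb9 and Ndufb6 followed in order of p-value. Ndufa12, next in that order, differed by 0.43 (SE 0.16, limma adjusted p = 0.210), more than Ndufb6. Ndufb9 read 11.68 and 11.51 in the Cre-positive samples and 11.25 and 10.98 in the Cre-negative samples, a difference of 0.48 (SE 0.15, adjusted p = 0.161). Ndufb6 read 11.33 and 11.34 in Cre-positive and 11.07 and 10.83 in Cre-negative samples, a difference of 0.39 (SE 0.13, adjusted p = 0.189). In both genes Cre-negative sample 2 was the lowest of the 4 arrays. Ndufs5, another accessory subunit, read 7.60 and 8.34 in the Cre-positive samples and 7.59 and 7.50 in the Cre-negative samples, so its difference of 0.42 rested on Cre-positive sample 2; it was singled out after its values were seen.

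The nuclear core subunits of complex I, most of which bind NADH, flavin or iron-sulfur clusters, had a smaller median difference. Of 6 kept core genes 5 were above 0, with a median of 0.18, and 3 of 6 after centring on kept genes. Among the other 28 genes 26 were above 0, with a median of 0.28, and 22 of 28 after centring. As deposited, 4 of the 6 core genes and 22 of the 28 others were higher without overlap (against 34.2% of all kept genes). The core genes Ndufv2, Ndufs7, Ndufs8 and Ndufs3 differed by 0.29, 0.27, 0.24 and 0.12. Ndufv1, which carries the flavin, read 11.24 and 11.20 in the Cre-positive samples and 11.17 and 11.11 in the Cre-negative samples, a difference of 0.080 that turned to -0.049 after centring. Ndufs1, the largest iron-sulfur subunit, read 9.97 and 9.84 in Cre-positive and 10.03 and 9.95 in Cre-negative samples, a difference of -0.091. These core genes were also singled out after their values were seen, and the difference between core and other genes was not tested.

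Ndufs4, an accessory subunit whose loss in mice causes an encephalopathy, had the lowest difference of complex I. It read 10.79 and 10.95 in the Cre-positive samples and 11.21 and 10.78 in the Cre-negative samples, a difference of -0.12 with overlapping groups. Ndufa4, named as a complex I subunit and since assigned to complex IV, read 9.64 and 9.61 in Cre-positive and 9.66 and 9.39 in Cre-negative samples. That difference of 0.10 turned to -0.029 after centring on kept genes. Its paralog Ndufa4l2, induced by hypoxia in other cells, was dim at 5.47 and 5.51 in Cre-positive and 5.46 and 5.76 in Cre-negative samples.

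Complex II, the succinate dehydrogenase, has 4 subunits, all with differences above 0 with values as deposited. The anchor Sdhc read 9.07 and 8.96 in the Cre-positive samples, against 8.63 and 8.48 in the Cre-negative samples, a difference of 0.46 (SE 0.12, adjusted p = 0.130). The anchor Sdhd read 10.17 and 10.23 in Cre-positive and 10.10 and 9.82 in Cre-negative samples, a difference of 0.24. Both anchors were higher in each Cre-positive sample than in either Cre-negative sample. The flavoprotein Sdha read 11.38 and 11.50 in the Cre-positive samples and 11.38 and 11.28 in the Cre-negative samples, with a difference of 0.11. Another bright probe set of Sdha read 11.14 and 11.17 in the Cre-positive samples, against 10.78 and 10.77 in the Cre-negative samples, a difference of 0.38 that is above that of Sdhd. The iron-sulfur subunit Sdhb read 11.56 and 11.52 in Cre-positive and 11.55 and 11.43 in Cre-negative samples, a difference of 0.051. The differences of 0.11 for Sdha and 0.051 for Sdhb turned to -0.016 and -0.078 after centring on kept genes. The median of the 4 genes was 0.18, and all 4 read lower in Cre-negative sample 2 than in sample 1, so that without sample 2 the median was 0.083.

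Complex III, the ubiquinol-cytochrome c reductase, had a median of 0.15 over 8 genes, of which 7 were above 0 and 6 did not overlap and were higher. The small subunit Uqcrq read 9.45 and 9.39 in the Cre-positive samples and 9.16 and 9.08 in the Cre-negative samples, a difference of 0.30 (SE 0.11, adjusted p = 0.224). Uqcr11, another small subunit, read 10.42 and 10.46 in Cre-positive and 10.24 and 10.27 in Cre-negative samples, a difference of 0.19. Both groups were apart in these 2 genes. Uqcrb, which lies near the ubiquinone site, read 13.44 and 13.36 in Cre-positive and 13.19 and 13.27 in Cre-negative samples, a difference of 0.17. Uqcr10 read 8.19 and 8.11 in Cre-positive and 7.71 and 8.10 in Cre-negative samples, with Cre-negative sample 1 alone apart. Uqcrc1, a core protein, read 11.05 and 10.92 in Cre-positive and 11.12 and 11.06 in Cre-negative samples, a difference of -0.10, and was 1 of the 3 genes that did not overlap and were lower. After centring on kept genes the median of the complex was 0.025.

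Complex IV, the cytochrome c oxidase, had a median of 0.14 over 14 kept genes, of which 13 were above 0 and 8 did not overlap and were higher. Cox6b1, which faces the intermembrane space, read 12.60 and 12.60 in the Cre-positive samples and 12.20 and 12.26 in the Cre-negative samples, a difference of 0.37 (SE 0.11, adjusted p = 0.158). Cox5a, on the matrix side, read 11.88 and 11.94 in Cre-positive and 11.59 and 11.49 in Cre-negative samples, also a difference of 0.37 (SE 0.12, adjusted p = 0.165). Neither gene overlapped between the groups. Cox5b, the zinc-binding subunit, read 12.85 and 12.89 in Cre-positive and 12.60 and 12.65 in Cre-negative samples, a difference of 0.25. Cox7a2 read 12.43 and 12.42 in Cre-positive and 12.05 and 12.25 in Cre-negative samples, a difference of 0.28. Cox7a2l, which helps to join complexes III and IV, read 12.62 and 12.69 in Cre-positive and 12.53 and 12.46 in Cre-negative samples, a difference of 0.16. The groups did not overlap for any of these 3 genes. After centring on kept genes the median of complex IV was 0.014, with 8 of 14 genes above 0.

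Cox7c, a small membrane subunit, was the member with the lowest difference. It read 8.56 and 8.68 in the Cre-positive samples, against 8.90 and 8.82 in the Cre-negative samples, a difference of -0.24 (SE 0.12, adjusted p = 0.333) with no overlap. Its other probe set read 6.34 and 6.39 in Cre-positive and 6.83 and 6.60 in Cre-negative samples, a difference of -0.35. Of the 45 genes with 2 or more probe sets past the filter, Cox7c was the 1 gene with all of them below 0.

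Subunits with a tissue restricted isoform were compared gene by gene. The ubiquitous Cox4i1 read 12.98 and 12.99 in the Cre-positive samples and 12.94 and 12.77 in the Cre-negative samples, a difference of 0.14. Cox6a1 read 12.77 and 12.80 in Cre-positive and 12.56 and 12.67 in Cre-negative samples, a difference of 0.17. Cox8a read 9.35 and 9.34 in Cre-positive and 9.25 and 9.35 in Cre-negative samples, a difference of 0.044 that turned to -0.085 after centring on kept genes. Of 8 isoforms typical of muscle, lung, testis or hypoxic cells, 5 passed the filter, all dim at mean levels of 5.08 to 7.30, with a median difference of 0.058. Of these, 0 were called (against 1.37% of all kept genes). By an unadjusted p under 0.05 in the limma fit it was 0 (against 14.3% higher and 6.29% lower). Without overlap it was also 0 (against 34.2% higher and 18.7% lower). Cox4i2 read 5.10 and 5.20 in Cre-positive and 4.76 and 5.24 in Cre-negative samples. Cox6a2 read 6.58 and 6.38 in Cre-positive and 6.36 and 6.49 in Cre-negative samples. Cox6b2 read 6.35 and 6.23 in Cre-positive and 6.13 and 6.32 in Cre-negative samples, a difference of 0.059. Cox8c read 7.28 and 7.33 in Cre-positive and 7.20 and 7.38 in Cre-negative samples. These 4 genes overlapped between the groups, and the differences of Cox6a2 (0.058), Cox6b2 and Cox8c (0.016) turned below 0 after centring.

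Complex V, the ATP synthase, had a median of 0.19 over 17 genes, of which 16 were above 0 and 13 did not overlap and were higher. Atp5e, the epsilon subunit of the central stalk, read 10.50 and 10.45 in the Cre-positive samples, against 9.88 and 9.96 in the Cre-negative samples, a difference of 0.55 (SE 0.11, adjusted p = 0.0795). Atp5l, subunit g of the membrane part, read 8.93 and 8.65 in Cre-positive and 8.27 and 8.34 in Cre-negative samples, a difference of 0.49 (SE 0.14, adjusted p = 0.146). Both stayed above 0 after centring on kept genes, Atp5e at 0.43 and Atp5l at 0.36. Atp5j2, subunit f, read 12.09 and 12.04 in Cre-positive and 11.83 and 11.86 in Cre-negative samples. The gamma subunit Atp5c1 read 12.56 and 12.42 in Cre-positive and 12.32 and 12.29 in Cre-negative samples. Atp5d, the delta subunit of the central stalk, was picked with its values known and read 12.11 and 11.94 in Cre-positive and 11.83 and 11.80 in Cre-negative samples. In these 3 genes each Cre-positive sample was above both Cre-negative samples.

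Atp5b, the catalytic beta subunit, was the 1 gene of complex V below 0, and with Uqcrc1 and Cox7c it makes up the 3 genes that were lower without overlap. It read 12.21 and 12.21 in the Cre-positive samples, against 12.22 and 12.37 in the Cre-negative samples, a difference of -0.081. The 3 genes for the c subunit, which forms the rotating ring and has the same mature protein from each, did not read alike. Atp5g2 read 9.73 and 9.54 in the Cre-positive samples and 9.18 and 9.41 in the Cre-negative samples, a difference of 0.34. Atp5g1 read 8.49 and 8.41 in Cre-positive and 8.35 and 8.42 in Cre-negative samples. Atp5g3 read 13.04 and 13.10 in Cre-positive and 13.04 and 13.03 in Cre-negative samples. The differences of Atp5g1 and Atp5g3, of 0.063 and 0.036, turned to -0.066 and -0.093 after centring on kept genes.

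The genes that did not pass the filter had 1 dim probe set each. Cox7a1, the muscle isoform, read 4.52 and 4.68 in the Cre-positive samples and 4.18 and 4.53 in the Cre-negative samples. Cox8b read 4.09 and 4.29 in Cre-positive and 4.27 and 4.25 in Cre-negative samples. Cox7b2 read 2.86 and 2.91 in Cre-positive and 2.87 and 2.96 in Cre-negative samples. Ndufb4, a complex I subunit present in every cell, had a single probe set, which read 4.13 and 3.93 in Cre-positive and 3.80 and 4.03 in Cre-negative samples.

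The share of member probe sets above 0 varied with their brightness. Of 151 probe sets past the filter, 127 were above 0 and 24 below, with a fit over all probe sets calling 0. Among member probe sets of a mean log2 signal of 10 to 12, 65 of 68 were above 0, with a median of 0.21, where 55.8% of all single-symbol probe sets of that brightness were above 0. From 8 to 10 it was 28 of 32, with a median of 0.22, and at 12 or more 19 of 21, with a median of 0.17. From 6 to 8 it was 11 of 19, with a median of 0.037, and below 6 it was 11 of 24, with a median of -0.034. The 2564 kept genes at or above the 90th percentile of brightness had a median of 0.039 with 56.6% above 0, and the 62 members among them had a median of 0.19 with 58 above 0.

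**Figure D4:**
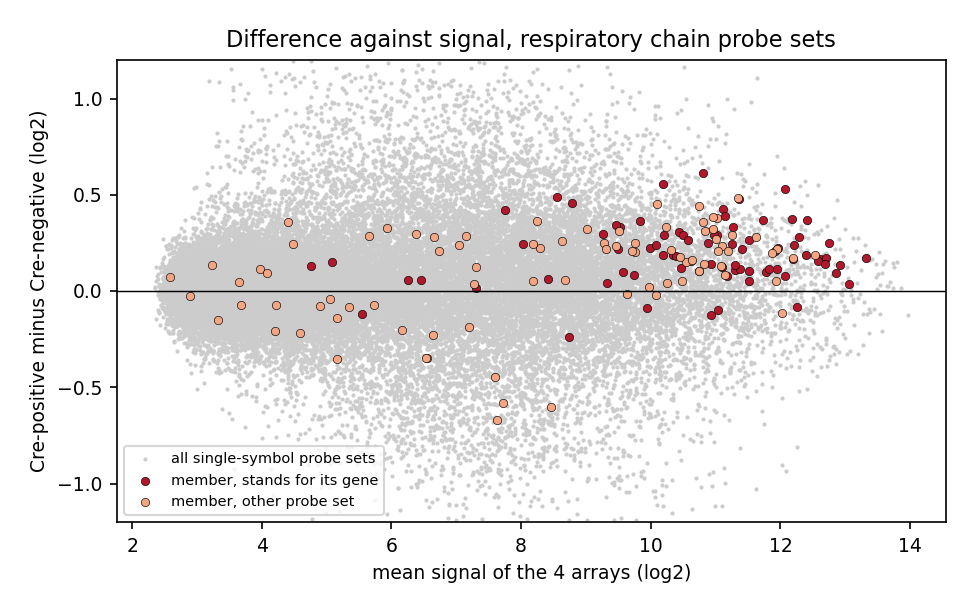
Difference of each probe set, Cre-positive minus Cre-negative (vertical axis, log2 signal), against its mean log2 signal over the 4 arrays (horizontal axis), with respiratory chain probe sets in red where they stand for their gene and in orange otherwise, and all single-symbol probe sets in grey (those beyond the vertical axis are not drawn). Respiratory chain probe sets above a signal of 8 lie mostly above 0, and dimmer ones lie on both sides of it.

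Of 45 genes with 2 or more probe sets past the filter, 29 had all of them above 0 and 15 had both signs. In 9 genes the probe sets lay over 0.5 apart. In 6 of these, Ndufs4, Atp5c1, Sdha, Cox5b, Uqcrq and Ndufb2, a probe set dimmer than the brightest of its gene read lower in both Cre-positive samples than in either Cre-negative sample. Its mean signal was 7.64, 8.46, 7.73 and 7.59 in the first 4 genes, where the median over all kept genes was 7.85. That of Ndufs4 read 7.23 and 7.37 in the Cre-positive samples and 8.09 and 7.85 in the Cre-negative samples, a difference of -0.67 (limma adjusted p = 0.0844 in the fit of all probe sets). That of Atp5c1 read 8.24 and 8.09 in Cre-positive and 8.94 and 8.59 in Cre-negative samples. That of Sdha read 7.37 and 7.50 in Cre-positive and 7.82 and 8.22 in Cre-negative samples. That of Cox5b read 7.39 and 7.34 in Cre-positive and 7.77 and 7.86 in Cre-negative samples. Their differences were -0.60 for Atp5c1, -0.58 for Sdha and -0.44 for Cox5b, where the brightest probe sets of the same genes had 0.19, 0.11 and 0.25. The other 5 genes were Uqcrq (-0.35 to 0.30), Atp5j2 (-0.35 to 0.22), Ndufb2 (-0.23 to 0.33), Ndufb9 (-0.078 to 0.48) and Ndufa12 (-0.085 to 0.45). Where these probes lie in the transcripts is not given here, and probe sets whose names mark shared sequence can also bind relatives or processed pseudogenes, which many of these genes have.

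**Figure D5:**
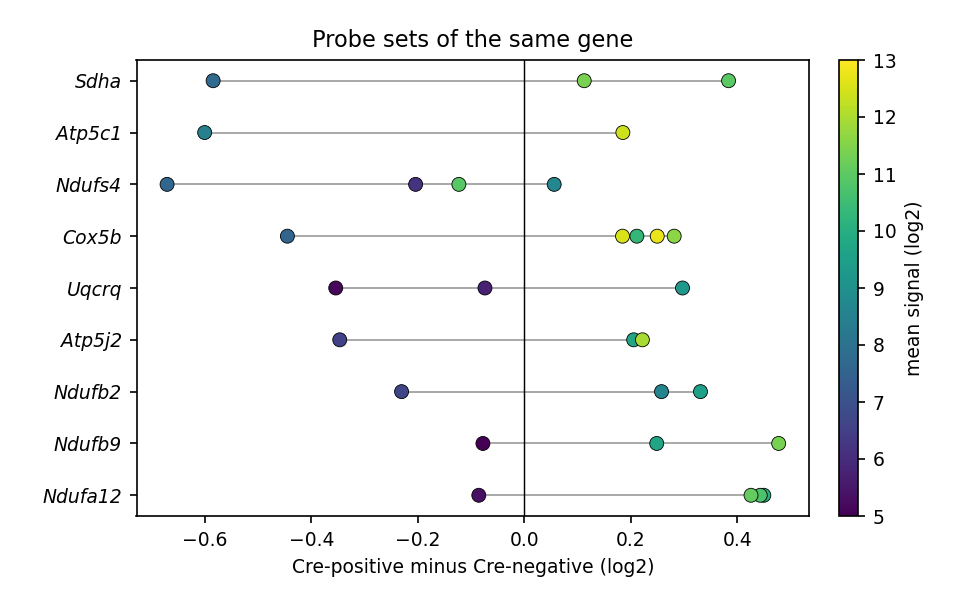
Difference of every probe set past the filter (horizontal axis, log2 signal, Cre-positive minus Cre-negative) for the 9 genes (vertical axis) whose probe sets lie over 0.5 apart, coloured by mean log2 signal over the 4 arrays. The lowest points of Ndufs4, Atp5c1, Sdha and Cox5b lie between -0.67 and -0.44 and are dimmer than the brightest probe sets of those genes.

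Other genes of mitochondrial respiration were read from lists of whole groups. Beside the counts of these lists, 61.0% of all kept genes were above 0 and 1.37% were called. At an unadjusted p under 0.05 in the limma fit, 14.3% of all kept genes were higher and 6.29% were lower. Of the subunits encoded by mitochondrial DNA, ND5 of complex I had a probe set with a single symbol, which read 11.43 and 11.24 in the Cre-positive samples and 11.01 and 11.01 in the Cre-negative samples, a difference of 0.33 (adjusted p = 0.221). All 9 genes of subunits and carriers outside the symbol rule were above 0, with 0 called, 5 higher and 0 lower at an unadjusted p under 0.05, and a median of 0.30. Etfb and Etfa, both subunits of the flavoprotein that passes electrons from fat oxidation, differed by 0.49 and 0.48, and Coq7, an enzyme of ubiquinone synthesis, by 0.55.

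Of 47 kept assembly factors 35 were above 0 and 0 were called, with 12 higher and 2 lower at an unadjusted p under 0.05 and a median of 0.23. Ttc19, which acts in the upkeep of complex III, read 7.35 and 7.25 in the Cre-positive samples, against 8.72 and 8.19 in the Cre-negative samples, a difference of -1.15 (SE 0.19, adjusted p = 0.0605). Its other probe sets past the filter differed by -0.19 and -0.059. The complex I assembly factors Ndufaf6 and Timmdc1 differed by 0.59 and 0.58, each with no overlap between the groups.

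Of 18 kept regulators of mitochondrial biogenesis, 11 were above 0 and 0 were called, with 2 higher and 3 lower at an unadjusted p under 0.05. The groups did not overlap for 9 that were higher (against 34.2% of all kept genes) and 5 that were lower (against 18.7%). Nrf1, which encodes the factor of the GCGCATG core, read 9.01 and 8.93 in the Cre-positive samples, against 9.69 and 9.65 in the Cre-negative samples, a difference of -0.70 (SE 0.11, adjusted p = 0.056). Its adjusted p was 0.0463 after centring on kept genes, where the difference was -0.83, 0.0343 with a trended and robust eBayes, and 0.149 to 0.229 when each array was left out in turn. Its other probe sets past the filter differed by -0.17, -0.31 and -0.62. Gabpb2, a partner subunit of the ETS factor GABP, read 9.92 and 9.92 in Cre-positive and 10.30 and 10.34 in Cre-negative samples, a difference of -0.40 (adjusted p = 0.136), and its other probe sets by -0.55, -0.19 and 0.27. Tfb1m, which modifies mitochondrial ribosomal RNA, differed by 0.43. Other regulators, singled out after their values were seen, lay on the other side of 0 from Nrf1: the GABP subunits Gabpb1 and Gabpa differed by 0.29 and 0.026, and the coactivators Pprc1 and Ppargc1b by 0.52 and 0.25. Esrra, Polg and Yy1, singled out in the same way, lay on the side of Nrf1, at -0.62, -0.31 and -0.15. With Nrf1 and Gabpb2 they make up the 5 regulators that were lower without overlap.

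Mitochondrial ribosomal proteins, which translate the subunits encoded by mitochondrial DNA, had 71 of 76 kept genes above 0 and a median of 0.21, with 22 higher and 0 lower at an unadjusted p under 0.05 and 0 called. Mrpl52 differed by 0.81 (adjusted p = 0.067), Mrpl23 by 0.59 and Mrps28 by 0.53. Of 21 kept import genes 17 were above 0, with a median of 0.21, 0 called, and 6 higher and 0 lower at an unadjusted p under 0.05; Timm8a1, Timm10 and Timm9 differed by 0.53, 0.61 and 0.47. Pyruvate dehydrogenase and the TCA cycle, which feed the chain, had 11 of 16 genes above 0, a median of 0.10, 0 called, and 2 higher and 0 lower at an unadjusted p under 0.05; Suclg2, Fh1 and Cs differed by 0.58 (0.35 to 0.81 when each array was left out in turn), 0.33 and 0.31 (0.21 to 0.42). After centring on kept genes the medians were 0.080 for ribosomal proteins, 0.083 for import, 0.099 for assembly factors, 0.012 for regulators and -0.027 for the TCA cycle.

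Proliferation genes and Myc had differences above 0 as well, with another order of the arrays for the proliferation genes. Of 27 kept proliferation genes 26 were above 0, against 61.0% of all kept genes, with a median of 0.69. The groups did not overlap for 7 that were higher, against 34.2% of all kept genes. At an adjusted p under 0.05 in the limma fit 0 were called. At an unadjusted p under 0.05, 4 were higher and 0 lower, against 14.3% and 6.29% of all kept genes. The replication helicase genes Mcm5, Mcm4 and Mcm6 differed by 0.91, 0.57 and 0.56. When each array was left out in turn these differences were 0.60 to 1.22 for Mcm5, 0.35 to 0.79 for Mcm4 and 0.29 to 0.82 for Mcm6. The mean level of the 27 genes was 9.07 and 9.94 in the Cre-positive samples, against 8.38 and 9.34 in the Cre-negative samples, so that Cre-positive sample 1 read below Cre-negative sample 2. By mean level the respiratory chain genes had both Cre-positive samples above both Cre-negative samples. Myc, a transcription factor that acts on growth genes, was singled out with its value known and was called, at 7.97 and 7.62 in Cre-positive and 6.09 and 6.52 in Cre-negative samples, a difference of 1.49 (adjusted p = 0.0414; 0.0541 after centring on kept genes and 0.0672 to 0.209 when each array was left out in turn). The part of proliferation or Myc in the respiratory chain values was not tested.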

How the data were processed

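The deposited table holds log2 signals per probe set, which the authors made with RMA (background subtraction, quantile normalization and probe summary), per the submitters' processing notes, which give no version; base 2 was taken from the range, 2.18 to 14.4, and from what RMA returns. RNA was amplified in 2 cycles, per the labels' protocols. Arrays give no counts, so their number, 2 per group, limits precision.

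Of 45037 probe sets, 34945 had 1 symbol in the platform annotation, 932 several and 9160 none; only the first were used. All 81 member genes matched RefSeq by Entrez ID. Each gene took its brightest probe set, and genes at or above the 40th percentile (4.76) were kept. Limma 3.58.1 (R 4.3.3) fitted the 2 groups with eBayes (2 residual and 3.59 prior degrees of freedom) and Benjamini-Hochberg adjustment over 11639 genes; the script was tested on simulated data. An exact permutation of 2 against 2 arrays cannot go below p = 0.333. Samples are separate mice. Medians of lists carry no test.

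Named were Ikzf1; per complex the 4 genes with the smallest p and the lowest and highest differences; isoform pairs; Sdh genes; genes with discordant or no kept probe sets; and per list the called genes and the 3 with the smallest p. Myc, Xist, Kdm5d and the genes the text marks as singled out lie outside this rule. Members, lists and motifs were chosen with earlier results of these data known. Alternatives covered the filter, the probe set rule, centring, eBayes settings, array weights, a replicate block and leaving out each array.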

Additional observations from a re-analysis of the deposited data

How the results depend on the processing

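The count of respiratory chain genes called was 0 as reported. It was 2 with a filter at the 90th percentile, chosen after seeing the data (Ndufc1 and Atp5e), and 2 with a trended and robust eBayes (Ndufc1 and Ndufc2). With the sample number as a replicate block it was 1, Ndufc1 (limma adjusted p = 0.0447). Calls over all genes were then 821, against 160 as reported. Whether the shared numbers pair the mice is not given. The deviations of same-numbered arrays correlated at 0.177, and with 2 arrays per group this cannot decide it. The members' median of 0.19 was 0.15 with the mean of probe sets or with arrays centred on their median, 0.13 with only plain _at probe sets, and 0.057 with centring on the median of kept genes, also chosen after seeing the data; without single arrays it was 0.16 to 0.21. With centring on kept genes the medians were 0.13 for complex I, 0.047 for II, 0.025 for III, 0.014 for IV and 0.057 for V. With plain _at probe sets they were 0.15 for I, 0.059 for IV and 0.11 for V, with the mean of probe sets 0.12 for III and 0.11 for V, with centring on array medians 0.15 for V, and at the 90th percentile 0.21 for IV. Without single arrays they were 0.18 to 0.27 for I, 0.083 to 0.27 for II, 0.12 to 0.18 for III, 0.13 to 0.16 for IV and 0.16 to 0.24 for V. Calls over all genes were 301 with the trended and robust eBayes, 90 and 65 with filters at the 60th and 90th percentiles, 104 with plain _at probe sets and 103 with every probe set fitted. The Benjamini-Hochberg adjustment ran over fewer genes under the stricter filters; for the others the cause was not tested.

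Differences of single genes changed sign as follows. Centring on kept genes gave -0.066 for Atp5g1, -0.093 for Atp5g3, -0.071 for Cox6a2, -0.070 for Cox6b2, -0.085 for Cox8a, -0.11 for Cox8c, -0.029 for Ndufa4, -0.049 for Ndufv1, -0.016 for Sdha, -0.078 for Sdhb and -0.082 for Epor; centring on array medians gave -0.014 for Cox8c. The mean of probe sets gave -0.21 for Atp5c1, -0.044 for Atp5g1, -0.0079 for Cox6a2, -0.041 for Cox8a, -0.061 for Cox8c, -0.011 for Sdha and -0.00085 for Timm9. Plain _at probe sets gave -0.60 for Atp5c1, -0.44 for Cox5b, -0.085 for Ndufa12, -0.23 for Ndufb2, -0.074 for Uqcrq and -0.47 for Timm9. Without single arrays the ranges that cross 0 were -0.092 to 0.39 for Cox4i2, -0.040 to 0.16 for Cox6a2, -0.036 to 0.15 for Cox6b2, -0.0084 to 0.096 for Cox8a, -0.076 to 0.11 for Cox8c, -0.036 to 0.24 for Ndufa4, -0.27 to 0.029 for Ndufa4l2, -0.34 to 0.094 for Ndufs4, -0.010 to 0.11 for Sdhb, -0.35 to 0.29 for Alas2 and -0.31 to 0.15 for Cd79b. Either centring lowered the difference of every gene by the same amount, so differences just above 0 fell below it. The cause of the other changes was not tested.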
